A study of Mus musculus with 15 samples.

Results

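The 7 genes described here encode proteins of secretory cells in the lining of the airways, and their transcripts were followed in the hearts of mice given methamphetamine (meth) or phosphate-buffered saline (PBS). They are the secretoglobins Scgb1a1, Scgb3a1 and Scgb3a2, the BPI-fold genes Bpifa1 (older name Plunc) and Bpifb1, the gel-forming mucin Muc5b, and Agr2. The 7 genes, of 18351 genes with a named probe, were chosen by name with earlier results of these data known. Among these results were their high signals in male meth hearts. Their own differences between meth and PBS hearts are therefore described without a test. Each gene had 1 probe, which was found through the accession that the array files give for it.

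RNA from the heart tissue of C57BL/6 mice was hybridised to Agilent arrays of 1 colour, with 1 mouse to an array, and 15 arrays were used. Males given meth (male Meth, n = 4), males given PBS (male PBS, n = 4), females given meth (female Meth, n = 4) and females given PBS (female PBS, n = 3) formed the 4 groups. Mice entered the study at 8 to 10 weeks of age and were injected into the abdomen each week for 5 months, and the weekly meth dose rose to 40 mg/kg at week 20. The males of each group came from 2 trials, with 2 mice per trial, whereas the females belonged to 1 trial by their titles. The hearts were excised after 5 months of dosing, so from animals alive at that time. Slides 1 and 2 held the male arrays of trial 1 with replicates 1 and 2 of each female group, slide 3 held the male arrays of trial 2, and slide 4 held female Meth replicates 3 and 4 with female PBS replicate 3. Another label field places those 3 female arrays of slide 4 in trial 2, and they were brighter. Before scaling, the 75th percentile of their spot signals was 461 to 618, against 323 to 424 on the other arrays. On each array, 61.4% to 71.4% of probes had a signal well above background, by the flag that the scanning software sets for each spot.

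Secretoglobins are small proteins that non-ciliated secretory cells of the airway, called club cells, release onto the surface of the lung. BPI-fold proteins share a fold with the bactericidal/permeability-increasing protein and are found in the fluid of the nose and large airways. Mucin 5B is a polymer that gives mucus its gel, and Agr2 is an enzyme of the endoplasmic reticulum that helps mucins to fold. The usual sources of all these proteins are epithelial cells. In RNA of whole tissue, fewer cells of a type and less RNA per cell cannot be told apart.

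The sequences upstream of the transcript starts are shown first, since genes of 1 secretory cell type are often studied for shared control elements and the signals of these 7 genes are compared throughout. RefSeq promoter sequences (build GRCm38.p6) are shown for 4 of the 7 genes, and Bpifb1 had 2 starts. Each line gives the 250 bases before the start, 5′ to 3′ on the strand of the gene. Capitals mark matches, on either strand, to the letters TGTTTNC (a forkhead motif of the FOXA factors), CAAGNG (the core of the NKX2-1 motif) and TATAAA (the TATA box), where N is any base. No matches to different motifs overlapped each other. The sequences lie, in this order, at chr2:154142630-154142879, chr2:154190568-154190817, chr2:154200130-154200379, chr11:49663345-49663594 and chr12:35992675-35992924, all on the plus strand.
Bpifa1: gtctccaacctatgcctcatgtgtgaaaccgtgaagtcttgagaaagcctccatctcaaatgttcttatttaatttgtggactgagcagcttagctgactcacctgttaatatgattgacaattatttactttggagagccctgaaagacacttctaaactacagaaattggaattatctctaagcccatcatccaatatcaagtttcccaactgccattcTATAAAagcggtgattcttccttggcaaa
Bpifb1 start 1: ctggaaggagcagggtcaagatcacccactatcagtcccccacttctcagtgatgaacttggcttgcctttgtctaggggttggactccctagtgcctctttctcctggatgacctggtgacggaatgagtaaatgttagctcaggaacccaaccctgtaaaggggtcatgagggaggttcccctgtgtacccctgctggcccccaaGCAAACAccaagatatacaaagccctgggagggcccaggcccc
Bpifb1 start 2: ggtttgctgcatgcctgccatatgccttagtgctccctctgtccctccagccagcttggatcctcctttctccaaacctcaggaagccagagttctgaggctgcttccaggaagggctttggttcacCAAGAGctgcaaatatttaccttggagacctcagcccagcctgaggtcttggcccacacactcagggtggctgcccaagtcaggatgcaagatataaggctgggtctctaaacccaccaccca
Scgb3a1: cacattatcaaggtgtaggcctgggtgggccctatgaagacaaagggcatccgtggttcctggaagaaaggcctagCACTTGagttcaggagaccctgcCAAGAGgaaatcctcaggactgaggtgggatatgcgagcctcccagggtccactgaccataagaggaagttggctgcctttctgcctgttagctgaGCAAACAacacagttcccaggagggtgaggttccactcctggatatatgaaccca
Agr2: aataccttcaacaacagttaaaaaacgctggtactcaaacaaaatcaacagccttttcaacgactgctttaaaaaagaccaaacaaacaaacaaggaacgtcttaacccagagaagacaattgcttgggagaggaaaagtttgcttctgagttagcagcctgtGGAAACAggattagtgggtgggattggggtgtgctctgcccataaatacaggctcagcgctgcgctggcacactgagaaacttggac

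The window of Bpifa1 held a TATA box from base -29 to -24, counted back from the start, and no match to the other motifs. The windows of Scgb3a1, of the first Bpifb1 start and of Agr2 each held 1 forkhead match, all on the minus strand, which began at base -55, -43 and -87. Scgb3a1 also held 2 matches to the NKX2-1 core, and the second start of Bpifb1 held 1. No motif was thus present in all 5 windows. Of 32851 RefSeq promoter windows of the same length, 17.8% held the forkhead letters, 40.6% the NKX2-1 core and 12.4% the TATA box.

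Values are normalized log2 signals. A value of 0 is the 75th percentile of the array's spots, and a step of 1 is a doubling of the signal. Where all arrays of a group were not well above background, their signal gives only an upper limit, and a fold against them is written as "at least". Such a fold compares the mean of the brighter group with the lowest signal that was well above background on each dimmer array. Differences are from a linear model of all 15 arrays (limma, 4 groups and trial), with their standard errors (SE).

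In hearts of males given meth, all 7 genes were higher than in hearts of males given PBS, with no overlap between the groups. Their log2 differences ranged from 3.30 for Muc5b to 12.13 for Bpifa1, with a median of 5.70, against a median of -0.030 over all 28358 probes tested. Past the threshold of the fit (Benjamini-Hochberg adjusted p of 0.05 over all probes tested) were 7 of the 7 genes, all higher, where 0.804% of all probes were called higher and 0.3% lower. For 4.74% of all probes tested, the lowest male Meth value was above the highest male PBS value. All 7 had met the minimum for testing, a signal well above background on 3 or more arrays, but Muc5b and Agr2 met it only through their male Meth arrays. These counts describe how the 7 genes were picked and are not evidence about them.

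**Figure D1:**
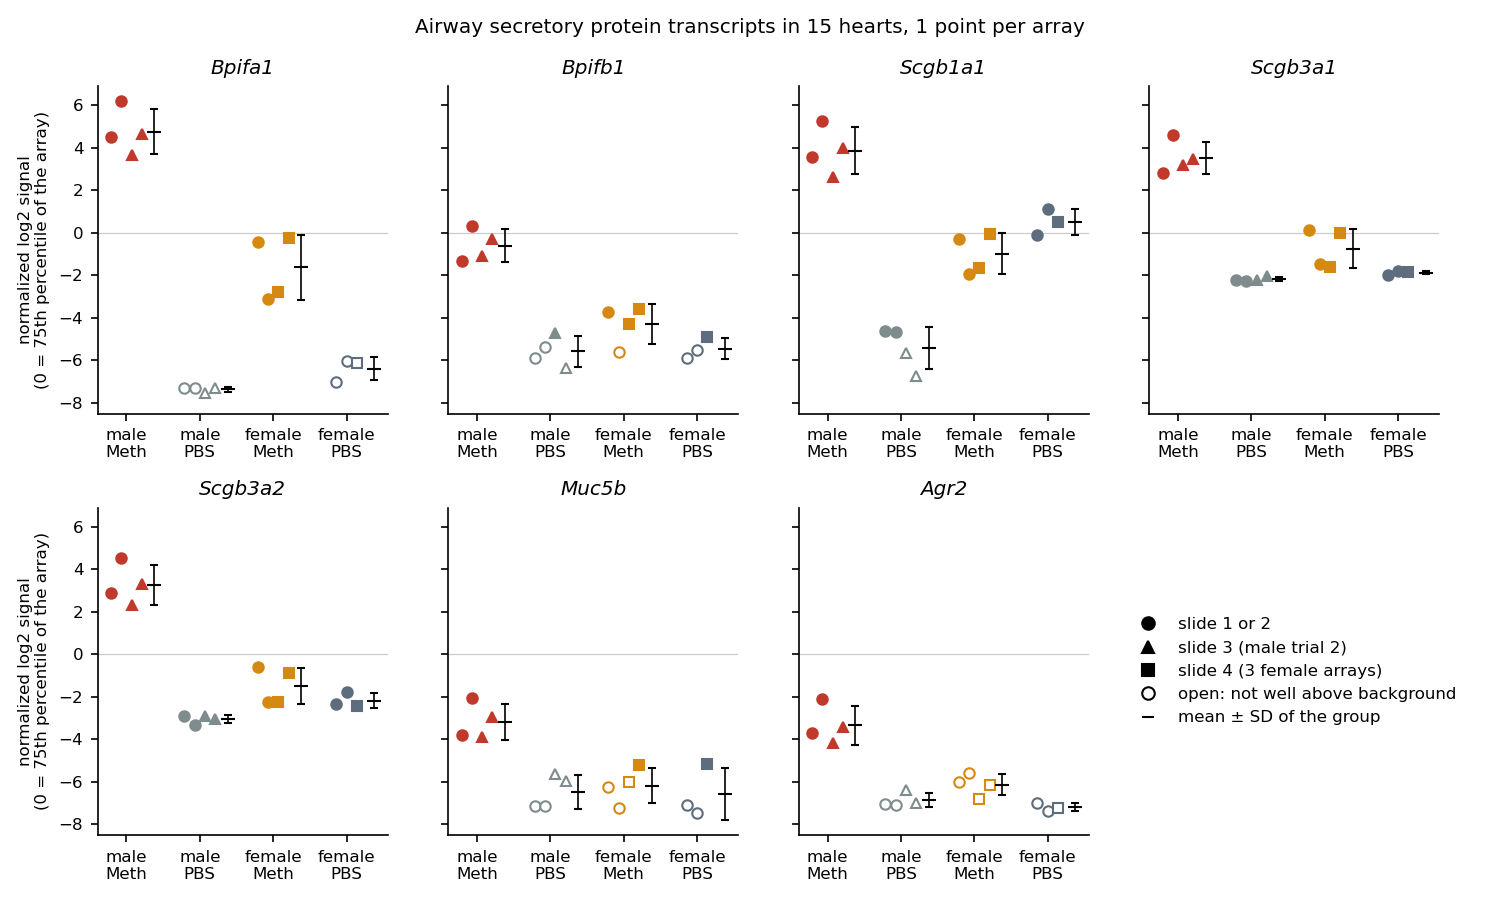
Normalized log2 signal (vertical axis) of the 7 airway secretory genes on each of 15 arrays in the 4 groups, with 1 point per array, open where the probe was not well above background, the marker shape giving the slide, and the bar the mean ± SD. The 4 male Meth arrays sit above all 4 male PBS arrays in every panel, and Scgb1a1 is the panel in which female PBS hearts lie well above male PBS hearts.

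Bpifa1, a protein of the airway surface fluid with antimicrobial and surfactant-like activity, had the greatest difference of the 7. On the male Meth arrays it was at 4.50 and 6.20 in trial 1 and at 3.65 and 4.65 in trial 2. On the male PBS arrays it was at -7.33, -7.32, -7.56 and -7.30, none of them well above background. The male Meth mean was 4.75 ± 1.06 (SD, n = 4), and the signal was at least 899-fold higher than in male PBS hearts. The 4 PBS values sat at the dark end of the arrays, close to each other, so the fitted log2 difference of 12.13 (SE 0.64) is set by the level of the background.

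Bpifa1 was also the gene with the clearest difference in females. On the female Meth arrays it was at -0.43, -3.10, -2.78 and -0.23 for replicates 1 to 4, and well above background on all 4. On the female PBS arrays it was at -7.03, -6.06 and -6.14, and well above background on none. The groups did not overlap, the signal was at least 13.3-fold higher after meth, and the fitted log2 difference was 4.77 (SE 0.69). Replicates 1 and 4 of female Meth lay above replicates 2 and 3 by log2 values of 2.35 to 2.87. The male Meth mean was higher than the female Meth mean of -1.64 ± 1.52 (SD, n = 4), with no overlap, and the log2 difference between meth and PBS was larger in males by 7.36 (SE 0.94).

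Bpifb1, the long BPI-fold protein of mucus-making airway cells, lay at -1.36 and 0.31 (trial 1) and -1.08 and -0.31 (trial 2) on the male Meth arrays. The male PBS arrays had -5.89, -5.38, -4.72 and -6.39, and only trial 2 replicate 1, the highest of these, was well above background. Female Meth arrays had -3.72, -5.60, -4.33 and -3.58, with replicate 2 not well above background. Female PBS arrays had -5.91, -5.55 and -4.93, with only replicate 3 well above background. The fitted log2 difference was 4.99 (SE 0.51) in males and 1.16 (SE 0.55) in females, where the groups overlapped through the low value of Meth replicate 2.

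Bpifa1 and Bpifb1 are neighbours in a run of BPI-fold genes on chromosome 2, with Bpifa5 between them in the RefSeq gene order. Bpifa5 was well above background on all 15 arrays and had a log2 difference of -0.14 (SE 0.31, limma adjusted p = 0.900) in males and 0.0031 (SE 0.34, adjusted p = 0.999) in females. Of the 13 Bpif genes in the run, 11 had a probe, and 7 of these were well above background on no array. Cdk5rap1, the gene next to Bpifb1 on its other side, differed by -0.042 in males and -0.0017 in females. High signals in male Meth hearts were thus seen for Bpifa1 and Bpifb1 and not for the gene between them or the next gene.

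Scgb1a1, the club cell secretory protein and the most used marker of these cells, had a pattern of its own. On the male Meth arrays it was at 3.57 and 5.27 (trial 1) and 2.63 and 3.99 (trial 2). On the male PBS arrays it was at -4.61 and -4.68 in trial 1, both well above background, and at -5.68 and -6.74 in trial 2, neither of them well above it. In females the order was the other way: the PBS arrays had -0.11, 1.10 and 0.48 and the Meth arrays had -0.29, -1.97, -1.65 and -0.068. All 7 female arrays were well above background, and the female groups overlapped in that Meth replicate 4 lay just above PBS replicate 1.

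The fitted log2 difference of Scgb1a1 between meth and PBS was 9.29 (SE 0.52) in males and -1.48 (SE 0.56) in females, which is a difference between the sexes of 10.78 (SE 0.76). It was the 1 gene of the 7 whose fitted difference in females was below 0. Male PBS hearts were lower than female PBS hearts by -5.25 (SE 0.61), whereas the other 6 genes differed between PBS hearts of the sexes by -0.66 to 0.45. Scgb1a1 was the 1 gene of the 7 past the threshold in that comparison, where 0.289% of all probes were called lower in males. Since the gene was chosen with earlier results of these data known, this is a description without a test.

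Scgb3a1, a secretoglobin of the larger airways, was well above background on all 15 arrays. Male Meth arrays had 2.83 and 4.58 (trial 1) and 3.16 and 3.47 (trial 2), and male PBS arrays had -2.23, -2.26, -2.22 and -2.05. Female Meth arrays had 0.13, -1.48, -1.64 and -0.023, and female PBS arrays had -1.98, -1.81 and -1.86. Neither sex showed overlap between Meth and PBS, and in females the lowest Meth value was 0.17 above the highest PBS value. The fitted log2 difference was 5.70 (SE 0.42) in males and 1.13 (SE 0.46) in females.

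Scgb3a2, which is made by club cells and is known for binding lipids, was also well above background on all 15 arrays. It lay at 2.89 and 4.54 (trial 1) and 2.30 and 3.28 (trial 2) on male Meth arrays and at -2.93, -3.32, -2.91 and -3.06 on male PBS arrays. Female Meth arrays had -0.61, -2.24, -2.24 and -0.91, and female PBS arrays had -2.33, -1.80 and -2.46. Female Meth replicates 1 and 4 were above all female PBS arrays, whereas replicates 2 and 3 lay among them. The fitted log2 difference was 6.31 (SE 0.45) in males and 0.70 (SE 0.49) in females.

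Muc5b was well above background on 6 of the 15 arrays. The male Meth arrays had -3.79 and -2.08 (trial 1) and -3.90 and -2.96 (trial 2), all well above background, and the male PBS arrays had -7.14, -7.17, -5.65 and -5.97, none of them well above it. The signal was at least 3.68-fold higher in male Meth than in male PBS hearts, with a fitted log2 difference of 3.30 (SE 0.60). In females, Meth replicate 4 (-5.21) and PBS replicate 3 (-5.17) were the only arrays well above background, and both were on slide 4. The other 5 female arrays lay between -7.48 and -6.02, so a female difference was not detectable at this signal.

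Agr2 was well above background on the 4 male Meth arrays and on no other array. These 4 arrays had -3.72 and -2.10 (trial 1) and -4.19 and -3.43 (trial 2), against -7.04, -7.09, -6.40 and -7.02 in male PBS hearts. The signal was at least 3.25-fold higher, with a fitted log2 difference of 3.53 (SE 0.38). Female Meth arrays lay between -6.82 and -5.61 and female PBS arrays between -7.37 and -7.00. These did not overlap, but all 7 were below the level at which a signal counted as well above background.

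**Figure D2:**
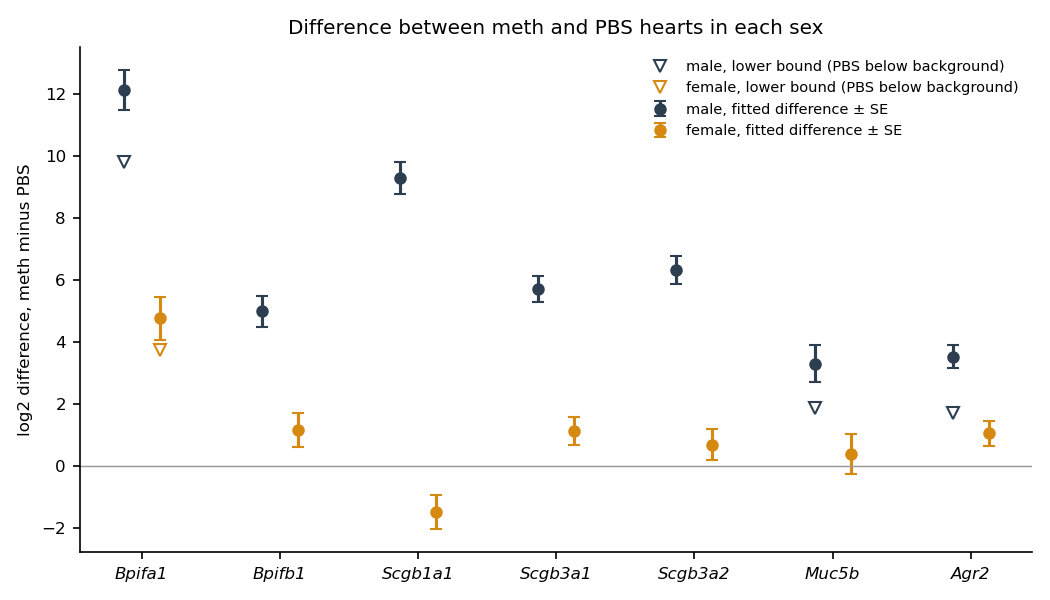
Fitted log2 difference between meth and PBS hearts (vertical axis, points with SE) for the 7 genes in males and females, with open triangles at the lower bound where no PBS array was well above background and all Meth arrays were. All 7 male differences are above 0, from 3.30 to 12.13, and the female difference of Scgb1a1 is -1.48.

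In females, 6 of the 7 genes had a positive log2 difference and the median of the 7 was 1.06, against -0.00010 over all probes tested. Past the threshold of the fit was 1 of the 7 genes, Bpifa1, where 0.205% of all probes were called higher and 0.564% lower. The Meth and PBS arrays of females did not overlap for 3 of the 7 genes (Bpifa1, Scgb3a1 and Agr2), beside 3.12% of all probes tested. As in males, such counts describe genes chosen with earlier results known and are not evidence about them. The log2 difference was larger in males for 7 of the 7 genes, with a median of 4.57. It was smallest for Agr2 (2.47, SE 0.55), Muc5b (2.91, SE 0.88) and Bpifb1 (3.83, SE 0.75). The male Meth values for which the genes were picked enter this difference too, so it is a description without a test.

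The male differences were present in each trial. Between meth and PBS arrays of trial 1 the log2 difference ran from 4.15 for Agr2 to 12.68 for Bpifa1, and in trial 2 from 2.38 for Muc5b to 11.59 for Bpifa1. It was larger in trial 1 for 6 of the 7 genes, and larger in trial 2 for Scgb1a1 (9.52 against 9.06). The 2 male trials were on different slides, so trial and slide cannot be told apart. No male Meth array of either trial fell among the male PBS arrays for any of the 7 genes.

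The female differences varied between slides. Within slide 1, which holds replicate 1 of each female group, the log2 difference was 6.60 for Bpifa1, 2.19 for Bpifb1, 2.11 for Scgb3a1 and 1.72 for Scgb3a2. Within slide 2, which holds replicate 2, it was 2.96 for Bpifa1, -0.049 for Bpifb1, 0.33 for Scgb3a1 and -0.44 for Scgb3a2. Within slide 4 it was 4.63, 0.98, 1.03 and 0.88 for these 4 genes. For Scgb1a1 it was below 0 on each of these slides, at -0.18, -3.07 and -1.34. Without the 3 arrays of slide 4, the female difference of Bpifa1 was 4.78 and that of Scgb1a1 was -1.62.

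Hearts of the male Meth group differed in how high the genes were. Of the 4 male Meth arrays, trial 1 replicate 2 was the highest for all 7 genes, and trial 2 replicate 1 was the lowest for 5 and trial 1 replicate 1 for the other 2. Trial 1 replicate 2 exceeded trial 1 replicate 1 by log2 values of 1.62 to 1.75 for the 7 genes, with a median of 1.70 and an SD over the genes of 0.042. This is a factor of 3.07 to 3.36. Over all probes tested the same 2 arrays differed by a median of -0.0017, and the 5th and 95th percentiles were -0.47 and 0.52. Other airway secretory genes that were called higher in male Meth hearts are described later. The 11 of them that were well above background on both arrays differed by a median of 1.74, with a range of 1.04 to 1.83. They were thus picked for being high in male Meth hearts, and the other listed genes were not compared in this way.

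Other pairs of male Meth arrays had less even differences. Trial 2 replicate 2 exceeded trial 2 replicate 1 by 0.31 to 1.36, and trial 1 replicate 2 exceeded trial 2 replicate 1 by 1.40 to 2.63. Among female Meth arrays, replicate 1 exceeded replicate 2 by 1.62 to 2.68 for the 4 genes well above background on both, and replicate 4 exceeded replicate 3 by 0.75 to 2.55 for 5 genes. Replicates 1 and 4 differed by -0.30 to 0.22, although they were on different slides. For Bpifa1, Scgb1a1, Scgb3a1 and Scgb3a2, female Meth hearts thus fell into a higher and a lower pair, and each pair held an array of slide 4. Agr2, which was not well above background on these arrays, was highest on replicate 2 (-5.61), and Muc5b was higher on replicate 3 (-6.02) than on replicate 1 (-6.28), neither of them well above background. Within the PBS groups no array was the highest or the lowest for more than 4 of the 7 genes.

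**Figure D3:**
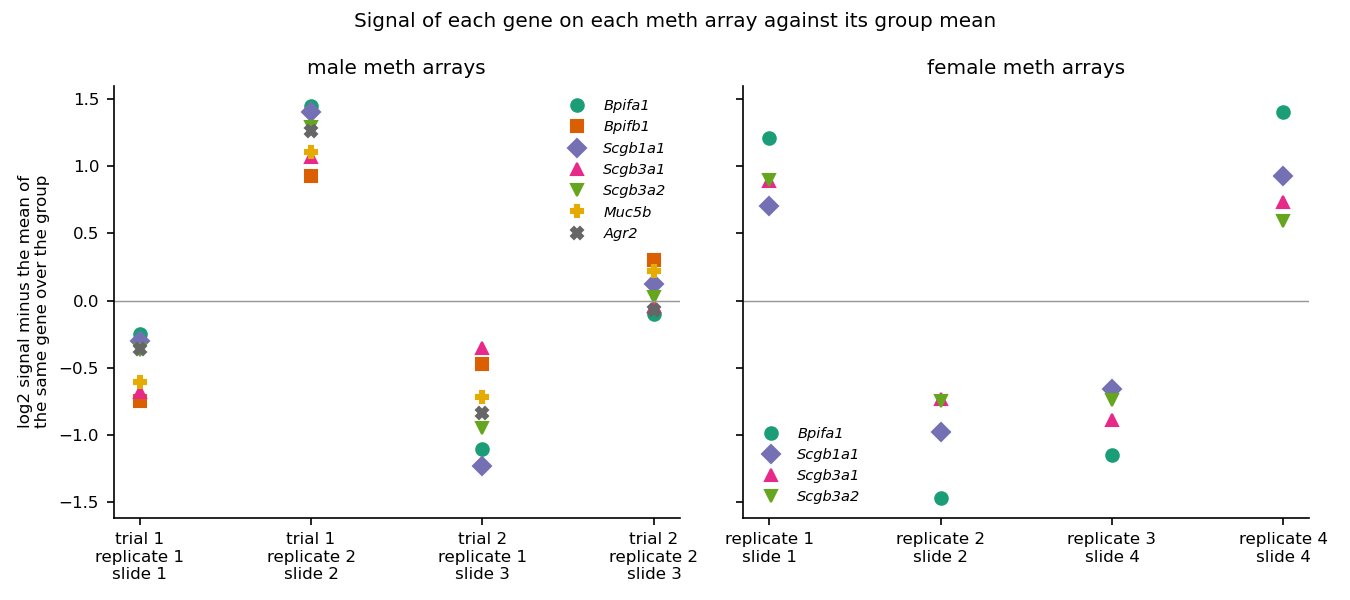
Log2 signal of each gene minus its own mean over the group (vertical axis) on the 4 male Meth and the 4 female Meth arrays (horizontal axis), for genes well above background on all 4 arrays of the group (7 in males, 4 in females). Trial 1 replicate 2 is the highest male Meth array for all 7 genes, and female Meth replicates 1 and 4 lie above replicates 2 and 3.

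Across the 15 arrays, the Pearson correlation of each gene with the mean profile of the other 6 was 0.83 for Scgb1a1, 0.88 for Muc5b, and 0.94 to 0.99 for Agr2, Bpifa1, Bpifb1, Scgb3a1 and Scgb3a2. These values rest largely on the gap between male Meth hearts and the rest, and the arrays share slides. The 10 genes of the array whose profile was most like the mean of the 7, in order, were Ltf (r = 0.99), Cyp2a4 (0.99), Cyp2f2 (0.98), Reg3g (0.97), Dynlrb2 (0.97), Cyp2a5 (0.96), Tspan1 (0.96), Cdh1 (0.95), Aqp5 (0.94) and Cxcl17 (0.94). Ltf encodes lactoferrin, an iron-binding protein of mucosal secretions, and Reg3g encodes an antimicrobial lectin. Cyp2a4, Cyp2a5 and Cyp2f2 are cytochromes P450, of which Cyp2f2 is typical of club cells, and the near-identical Cyp2a4 and Cyp2a5 may share probe signal. Dynlrb2 is a dynein light chain of cilia, Cdh1 the epithelial cadherin and Aqp5 a water channel of glands and lung. All 10 had higher means in male Meth than in male PBS hearts, by log2 values of 2.54 for Cdh1 to 9.66 for Cyp2a5. The profile they were ranked by is itself highest in male Meth hearts, so this direction follows from the ranking. At least Tspan1 and Cdh1 could be ranked only because they were well above background on male Meth arrays.

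Other genes of airway secretory cells were taken from 5 lists: further secretoglobins, further BPI-fold proteins, mucins and mucus cell proteins, transcription factors of secretory cells, and further genes of club and surface secretory cells. Together they hold 76 genes, of which 65 were on the array and 30 were tested, meaning well above background on at least 3 arrays. In males, 12 of the 30 rose after meth and none fell (limma, Benjamini-Hochberg over all probes). Over all probes tested, 0.804% were called higher and 0.3% lower. The lists were chosen with earlier results of these data known, and Reg3g, Ltf and Tspan1 are in the study's own table of genes. Counts over these lists are therefore a description and not independent evidence. Of the 30, 6 (Tff2, Fcgbp, Foxa1, Gabrp, Pigr and Tspan1) met the minimum of 3 arrays only through male Meth arrays, so they were tested because they were high there. Among the other 24, 7 rose and the median log2 difference was 0.35. For a gene of this kind, here and among the marker genes, the adjusted p first given is from the fit of all 41174 probes without that minimum, and the values with a replicate block or an array left out are with it. In females, 1 of the 30 rose and none fell, with 4 higher and 1 lower at an unadjusted p of 0.05. The difference between the sexes passed the threshold for 6 of the 30, all of them larger in males, where 0.102% of all probes were called so. With the replicate number as a block, since same-numbered arrays share a slide, the counts were 10 in males, 0 in females and 0 for the difference between the sexes.

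The genes that rose in males were mainly those of the club and surface secretory list, where 10 of 14 rose, or 7 of 11 without those tested only through male Meth arrays. Of 7 tested mucus cell genes 2 rose, and both were of that kind. The largest changes were those of Cyp2a5, Reg3g, Ltf, Tspan1, Cyp2f2, Tff2, Sftpd and Wfdc2, in that order. Cyp2a5 went from -6.63 ± 0.95 in male PBS to 3.03 ± 1.21 in male Meth hearts (SD, n = 4 each), a log2 difference of 9.66 (SE 0.67, adjusted p = 2.2e-05, at least 272-fold). In female PBS hearts Cyp2a5 was at -3.02 ± 1.04 (SD, n = 3), well above background on each array. Male PBS hearts were lower than these by -3.41 (SE 0.79, adjusted p = 0.086). Reg3g and Ltf were well above background on all male Meth and no male PBS arrays, and were at least 108-fold and 77.2-fold higher (adjusted p = 2.2e-05 for each). Cyp2f2 was well above background on all 15 arrays and rose by 5.02 (SE 0.44, adjusted p = 0.00013). Tspan1, a tetraspanin of epithelial surfaces, rose at least 16.7-fold (adjusted p = 0.00059 without the minimum).

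Tff2, a trefoil peptide secreted with mucins, was well above background on the 4 male Meth arrays and on no other. Its signal there exceeded that of male PBS hearts at least 7.95-fold (adjusted p = 9.3e-05 without the minimum). Wfdc2, an antiprotease of airway fluid, was measured on all arrays and rose by 3.47 (SE 0.49, adjusted p = 0.0051). Cbr2, measured on all arrays, rose by 1.09 (adjusted p = 0.032). Pigr (2.66), Gabrp (2.88) and Fcgbp (1.71) also passed, but without the minimum their adjusted p-values were 0.0081, 0.056 and 0.086. None of them was well above background on a male PBS array, and they were at least 1.60-fold, 2.98-fold and 1.55-fold higher. With the replicate block the adjusted p was 0.13 for Fcgbp, 0.091 for Cbr2 and 0.0081 for Gabrp. Leaving out any array but male PBS trial 1 replicate 1 and female PBS replicate 3 ended the call of Fcgbp (adjusted p up to 0.15). Any male PBS array, male Meth trial 2 replicate 2 or female PBS replicate 1 did so for Cbr2 (up to 0.11), and any male array but Meth trial 1 replicate 1 for Gabrp (up to 0.11).

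In females Reg3g was the gene past the threshold, with -2.38, -5.11, -4.61 and -2.16 on Meth replicates 1 to 4 and -7.24, -6.70 and -7.14 on the PBS arrays. Its log2 difference was 3.46 (SE 0.68, adjusted p = 0.041). Meth replicate 2 and all PBS arrays were not well above background, so no fold is given. As for Bpifa1, replicates 1 and 4 were the higher ones. With the replicate block it had an adjusted p of 0.13. Over 28 alternatives the adjusted p ranged from 0.021 to 0.97, and 20 of them missed the threshold. Leaving out female Meth replicate 1 or 4, any PBS array of either sex, or any male Meth array but trial 1 replicate 2 ended the call, with an adjusted p of up to 0.15.

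Male minus female log2 differences past the threshold were those of Cyp2a5 (8.99), Ltf (6.79), Tspan1 (6.28), Sftpd (5.98), Cyp2f2 (4.53) and Tff2 (4.35), with adjusted p-values of 0.0034 to 0.014. Tff2 and Tspan1 were among those tested only through male Meth arrays, and without the minimum they had 0.013 and 0.024. With the replicate block the adjusted p-values of the 6 were 0.073 to 0.12, and without the 3 arrays of slide 4 none of the 6 passed. Without female PBS replicate 2 the adjusted p of Cyp2f2 was 0.058, and without female PBS replicate 1 or 3 that of Tspan1 was at most 0.057. Reg3g had 5.36 (SE 0.93, adjusted p = 0.053) and Wfdc2 had 3.91 (SE 0.72, adjusted p = 0.069).

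**Figure D4:**
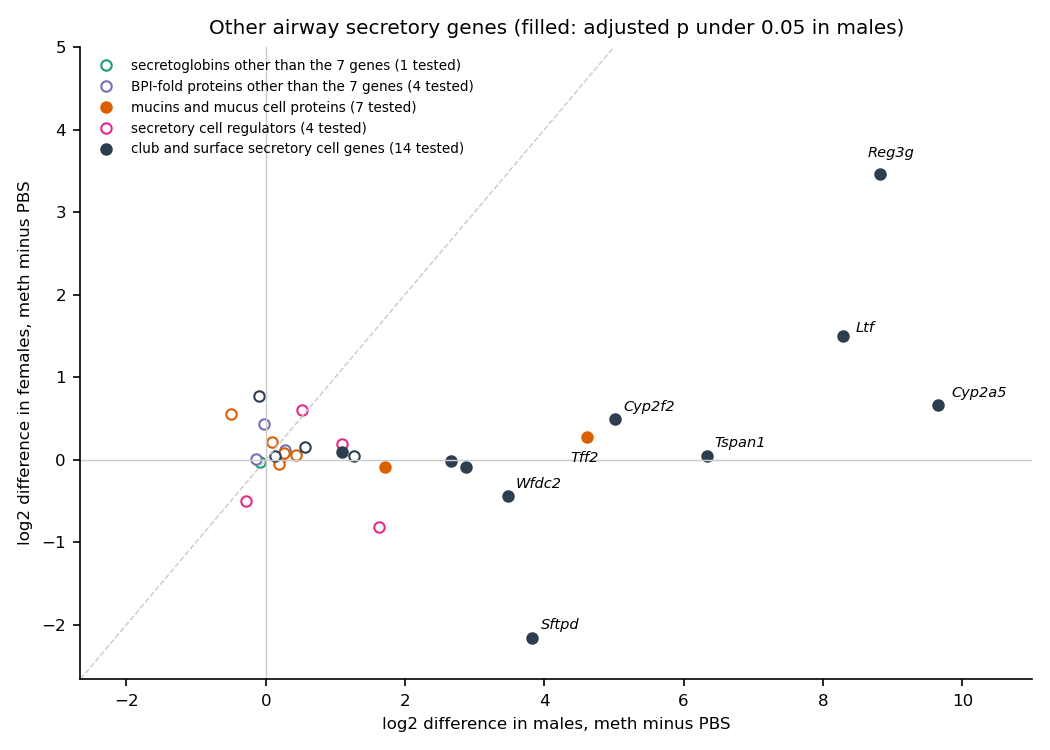
Log2 difference between meth and PBS hearts in males (horizontal axis) and females (vertical axis) for the 30 tested genes of the 5 airway secretory lists, 1 point per gene, filled where the adjusted p in males was under 0.05, with a dashed line where both sexes are equal. The 12 filled points all lie to the right of 0, up to 9.66 for Cyp2a5, and Reg3g stands highest in females at 3.46.

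Most relatives of the 7 genes gave no signal in these hearts. Of the 8 further secretoglobins on the array, 7 were well above background on no array, and Scgb1c1, which was measured on all 15, had a log2 difference of -0.088 (SE 0.14, adjusted p = 0.859) in males. Of the 13 further BPI-fold genes on the array, 4 were tested and limma called 0 of them in either sex, with 1 higher in males at an unadjusted p of 0.05. Muc5ac, the other gel-forming airway mucin, had log2 differences of 0.26 (SE 0.30, adjusted p = 0.777) in males and 0.081 (SE 0.32, adjusted p = 0.968) in females. Of 11 transcription factors of secretory cells, 4 were tested and limma called 0 in each sex, with 2 higher in males and 1 in females at an unadjusted p of 0.05. Nkx2-1, Spdef, Foxa2 and Foxa3 were well above background on no array, and Foxa1 was so on 3 male Meth arrays, with a log2 difference of 1.63 (adjusted p = 0.346 without the minimum).

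Some markers of other airway cells were also higher in male Meth hearts, most of them tested only through male Meth arrays. Of 12 ciliated cell genes, 7 were tested and 4 rose in male Meth hearts. Dynlrb2 rose by 3.90 (adjusted p = 0.00014). Foxj1, the master regulator of motile cilia, Tmem212 and Ccdc153 were tested only through male Meth arrays. Without the minimum they differed by 3.48 (adjusted p = 0.00030), 4.15 (0.00030) and 4.38 (0.0038). No male PBS array was well above background for any of these or for Dynlrb2. Their signals were at least 2.64-fold (Foxj1), 4.57-fold (Tmem212), 11.1-fold (Ccdc153) and 11.7-fold (Dynlrb2) higher in male Meth hearts. Of 7 basal cell genes, 5 were tested and Krt15 and Aqp3 rose, both tested only through male Meth arrays, with 5.13 (adjusted p = 0.00030) and 2.93 (adjusted p = 0.039) without the minimum, whereas Krt5 had 1.68 (adjusted p = 0.097). Of 8 epithelial genes, 5 were tested and Cldn7 (1.62, adjusted p = 0.0060), Krt18 (0.93, adjusted p = 0.016) and Cdh1 rose. Cdh1 was tested only through 3 male Meth arrays and differed by 2.54 (adjusted p = 0.0047 without the minimum). Krt15, Aqp3 and Cdh1, too, were well above background on no male PBS array. They were at least 7.22-fold, 4.97-fold and 1.54-fold higher in male Meth hearts. Without the genes tested only through male Meth arrays, 1 of 4 ciliated, 0 of 3 basal and 2 of 4 epithelial genes rose. The median log2 differences of these were 0.69, 0.046 and 0.98, and 0.804% of all probes were called higher. The marker lists, too, were chosen with earlier results of these data known. Epcam was well above background on 1 array and Trp63 on 1. With the replicate block, Aqp3 had an adjusted p of 0.069 and Cldn7 of 0.063. Leaving out male PBS trial 1 replicate 1 or 2, male PBS trial 2 replicate 1, or a Meth array (trial 2 replicate 2 for Aqp3, trial 1 replicate 2 for Krt18) ended the calls of Aqp3 (adjusted p up to 0.075) and Krt18 (up to 0.061). In females limma called 0 genes of these 3 lists, and 0 at an unadjusted p of 0.05 as well.

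Summed over a list, in units of the 75th percentile signal, ciliated markers ranged from 3.96 to 6.07 in male Meth and from 2.69 to 3.40 in male PBS hearts, and from 4.00 to 4.30 in female Meth and 3.81 to 4.15 in female PBS hearts. Epithelial markers ranged from 2.97 to 4.74 and from 1.38 to 2.21 in males, and from 1.77 to 2.79 and 2.15 to 2.37 in females. Basal markers ranged from 0.406 to 1.61 and from 0.270 to 0.378 in males, and from 0.301 to 0.439 and 0.325 to 0.564 in females. Trial 1 replicate 2, the male Meth array highest for all 7 genes, was also the highest of the 4 for all these lists. The ciliated sums rest mainly on Tppp3 and Cfap126, with mean log2 signals of 0.87 and 0.63 in male Meth hearts. Both were measured on all 15 arrays, and in males they differed by 0.044 and 0.38 (limma adjusted p = 0.922 and 0.066). Foxj1 and Tmem212 were well above background on no female array. The part of these cell types in the signals of the 7 genes was not tested.

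Of 9 alveolar markers, 7 were tested, 5 of the 7 had a positive log2 difference in males with a median of 0.36, and Aqp5 (4.01, adjusted p = 0.0018) and Sftpa1 rose. Sftpa1 was tested only through 3 male Meth arrays and differed by 2.86 (adjusted p = 0.047 without the minimum, and 0.057 with the replicate block). Neither Aqp5 nor Sftpa1 was well above background on a male PBS array, and they were at least 8.08-fold and 1.74-fold higher. Leaving out any male PBS array, or replicate 2 of male Meth in either trial, ended the call of Sftpa1 (adjusted p up to 0.088). Sftpb was well above background on no array. Sftpc, the surfactant protein that defines type 2 alveolar cells, was well above background on no male array and on all 7 female arrays. It was lower in female Meth (-3.75 ± 0.22, n = 4) than in female PBS hearts (-1.68 ± 0.85, n = 3), by -2.08 (SE 0.32, adjusted p = 0.014, and 0.065 with the replicate block). That call was also lost without the arrays of slide 4, with trial 1 alone and with the normexp background correction (adjusted p up to 0.51). Male PBS hearts were lower than female PBS hearts by -4.79 (SE 0.35, adjusted p = 1.7e-05). Summed alveolar markers ranged from 1.12 to 2.42 in male Meth, 1.61 to 1.98 in male PBS, 1.69 to 2.44 in female Meth and 1.78 to 2.26 in female PBS hearts.

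For Scgb1a1, Scgb3a1 and Scgb3a2, every female PBS array was above every male PBS array. Their fitted log2 differences, male minus female PBS, were -5.25, -0.24 and -0.66. Scgb1a1, alone of the 7, shared with Sftpc both a higher signal in female PBS than in male PBS hearts and lower values in female Meth hearts. Sftpd, surfactant protein D, had the same order in females, with -3.95, -2.63 and -3.63 on the PBS arrays and -4.77, -5.63, -7.01 and -4.84 on the Meth arrays, a log2 difference of -2.16 (SE 0.61, adjusted p = 0.140). It was lower in male PBS than in female PBS hearts by -3.57 (SE 0.67, adjusted p = 0.039). Leaving out any PBS array of either sex, male Meth trial 1 replicate 1, male Meth trial 2 replicate 2 or female Meth replicate 2 ended that call (adjusted p up to 0.17). Unlike Sftpc, Sftpd rose in males after meth, by 3.83 (SE 0.56, adjusted p = 0.0068), from no male PBS array well above background to all 4 male Meth arrays. Its signal there was at least 3.24-fold higher. This call was lost with low signals set to a floor, with the normexp background correction and with trial 1 alone (adjusted p up to 0.75). It was kept with each array left out. The part of lung tissue in the signals of Scgb1a1 was not tested.

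**Figure D5:**
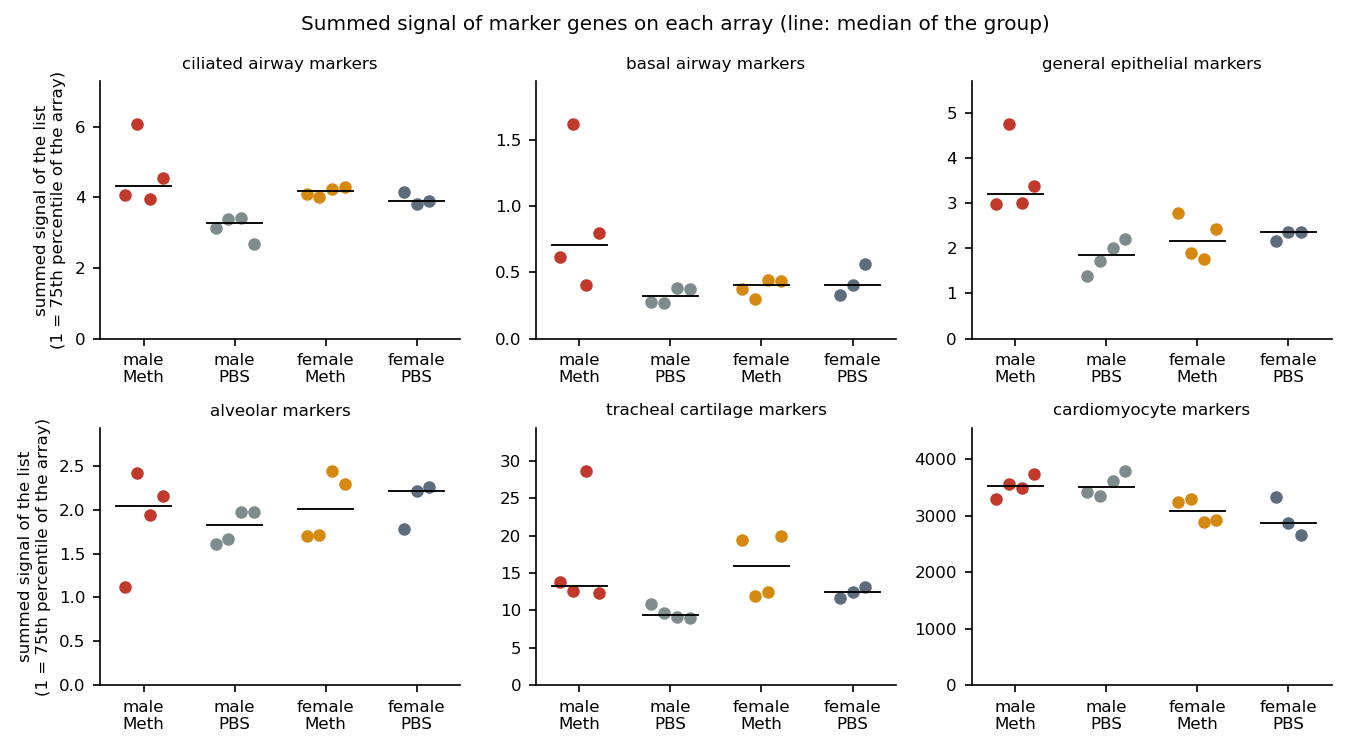
Summed signal of 6 lists of marker genes (vertical axes from 0, in units of each array's 75th percentile signal) on each of the 15 arrays by group, with 1 point per array and a line at the median. Ciliated, basal, epithelial and cartilage sums are higher in male Meth than in male PBS hearts, without overlap, and cardiomyocyte sums overlap between Meth and PBS in both sexes.

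Genes of other neck and chest tissues were looked at in the same way. Limma called 0 of the tested genes after meth in either sex among 6 tracheal cartilage, 6 thymus, 2 thyroid and 3 oesophagus genes. At an unadjusted p of 0.05, 1 cartilage, 1 thymus and 1 oesophagus gene were higher in males, and 1 cartilage gene was higher and 1 thymus gene lower in females. Summed cartilage markers were 19.4 and 19.9 on female Meth replicates 1 and 4, which were the higher ones for Bpifa1, Scgb1a1, Scgb3a1 and Scgb3a2, and 11.9 and 12.5 on replicates 2 and 3. In males they were highest, at 28.7, on trial 2 replicate 1, which was the lowest male Meth array for 5 of the 7 genes, and 12.3 to 13.8 on the other 3. Male PBS sums were 9.01 to 10.8 and female PBS sums 11.7 to 13.2. These sums rest mainly on Comp and Cytl1, with mean log2 signals of 2.31 and 3.21 in female Meth hearts. The next highest cartilage gene there was Col2a1, at -0.34, and Matn1 was well above background on no array. The sums thus follow these genes more than the list.

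Summed thymus markers ranged from 0.292 to 0.338 in male Meth and 0.211 to 0.288 in male PBS hearts, and from 0.227 to 0.462 in female Meth and 0.311 to 0.429 in female PBS hearts. Summed thyroid and oesophagus markers overlapped between Meth and PBS hearts in both sexes, between 0.308 and 0.507 and between 0.576 and 0.907 over all arrays. The 8 cardiomyocyte genes, which check the labelled tissue, were well above background on all 15 arrays. Limma called 0 of the 8 after meth in each sex, with 1 higher at an unadjusted p of 0.05 in each. Their sums were 3300 to 3729 in male Meth, 3345 to 3793 in male PBS, 2894 to 3300 in female Meth and 2649 to 3334 in female PBS hearts.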

How the data were processed

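Heart RNA of 15 mice was measured on Agilent arrays of 1 colour (Mouse GE 4x44K v1), grouped by the sex, treatment, trial and replicate number in the sample titles. The authors labelled the RNA with Cy3, scanned the slides and deposited a background-subtracted intensity for each spot, extracted with Feature Extraction (9.1 by the submitters' processing notes, 10.5.1.1 by the file headers) and not normalized between arrays. Per the file headers, flags from the same software, coded 0 or 1 (or -1, 0 and 1 for the kind of control spot), which count as other values, mark saturated spots (there were none), outliers and signals well above background. A second deposited table holds the authors' log2 values. Each of its columns was the log2 of that array's signals shifted by 1 constant, whose origin is not given in the sources used here, with medians of 5.18 to 5.38. It served as an alternative.

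From these, control spots were left out, outlier spots were set to missing, log2 signals were averaged over the spots of each probe, and the 75th percentile of each array was subtracted. Of 41174 probes, 28358 passed the filter, a signal well above background on 3 or more arrays, and were fitted with limma 3.58.1 in R 4.3.3 (lmFit and eBayes, 4 groups and trial), with two-sided p-values adjusted by Benjamini-Hochberg. Replicates were separate mice, and precision is limited by their small number. The fit was tested on simulated data. Figures were made in Python 3.11.15 (matplotlib 3.10.9).

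The 7 genes, the gene lists and the motifs were chosen with earlier results of these data known. Probes were named through their accessions in the RefSeq table (GRCm38.p6) for 6 of the 7 genes, and through the accession in the study's table of genes for Scgb3a2. The array design was annotated on mm9, so no position was taken from it. The genes named are the 7, the list genes past the threshold (the 8 with the largest absolute log2 difference where more than 8 passed, with the remaining 4 in males added after their values were seen), marker genes past the threshold or defining a list, which were picked after their values were seen, and the 10 genes of most like pattern. Lists held further secretoglobins, BPI-fold proteins, mucus cell genes, secretory cell regulators and club cell genes, and markers of ciliated, basal, epithelial, alveolar, cartilage, thymus, thyroid, oesophagus and cardiomyocyte cells.

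To check whether replicate numbers pair the arrays, each array's deviation from its group mean was correlated, over 23808 probes, between the meth and the PBS array of a number. The correlation was 0.26 to 0.66 in the 7 pairs, and each pair shared a slide, so the numbers pair the arrays by slide. As alternatives, the background was corrected by normexp (offset 50, on the median pixel signal, since no mean is given), arrays were normalized by quantiles or by their median, low signals were set to a floor, and the filter was dropped or extended to all 15 arrays. Further alternatives were the mean over the probes of a gene, the authors' log2 values, no trial term, the trial of the other label field, slide or replicate number as a block, trial 1 alone, each array left out, and the methods' t-test with and without pairing. Leaving out the arrays of slide 4 was added after seeing the data.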

Additional observations from a re-analysis of the deposited data

Results flagged for a closer look

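Within male PBS hearts, a single array stood apart from the other 3 for 3 of the 7 genes, by the gap to its nearest neighbour over the whole range of the group (above Dixon's critical value for 4 samples). This ratio was 0.894 for Bpifa1, where trial 2 replicate 1 was the lowest at -7.56, and all 4 values were below background. It was 0.832 for Scgb3a1, where trial 2 replicate 2 was the highest at -2.05 and well above background. It was 0.893 for Agr2, where trial 2 replicate 1 was the highest at -6.40, again with all 4 values below background. Of 21 such groups of 4 arrays checked, chance flags about 1 in 20.

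The log2 difference between meth and PBS hearts differed between the sexes, by the test of the difference itself in limma, for 6 of the further airway secretory genes. With the replicate block all 6 were lost (adjusted p of 0.073 to 0.12), and none passed without the arrays of slide 4. Tff2 and Tspan1 were tested only through male Meth arrays. It was larger in males by 8.99 for Cyp2a5, 6.79 for Ltf, 6.28 for Tspan1, 5.98 for Sftpd, 4.53 for Cyp2f2 and 4.35 for Tff2. Sftpd was higher in male Meth than in male PBS hearts and lower in female Meth than in female PBS hearts, although the female difference did not pass the threshold.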

How the results depend on the processing

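Of 594 recomputed log2 differences of the 7 genes under 29 alternatives, 574 moved by less than the spread between arrays, 20 moved by more, and none that had passed the threshold changed sign. The alternatives did not end the higher male signal of any of the 7 genes, and the smallest male difference was 0.63 for Muc5b with normexp, which adds an offset and so shrinks differences of dim probes. Normexp accounted for 15 of the 20. With the floor on low signals the male differences of Bpifa1, Muc5b and Agr2 were 9.81, 1.88 and 1.70, and the female one of Agr2 was -0.099. With trial 1 alone that of Muc5b in males was 4.23.

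The number of further airway secretory genes past the threshold depended more on the processing, and the cause was not tested beyond the smaller number of genes or arrays that some alternatives keep. For males the main count of 12 became 3 with a filter on all 15 arrays, 6 with normexp, 6 with trial 1 alone, 5 with the methods' t-test without pairing and 0 with pairing, and it was 9 to 12 with each array left out. The methods' t-test gave 14 (paired) and 17 (unpaired) of 30 genes in males, and 1 and 3 in females, at the unadjusted threshold. For the lists in which limma called 0 genes after meth, both forms of that test also gave 0 after adjustment. For females the main count of 1 became 0 with the replicate block, slide as a block, no trial term, no filter, a filter on all 15 arrays, the floor, normexp, trial 1 alone, both t-tests and without slide 4, and it was 0 to 1 with each array left out. For the difference between the sexes the main count of 6 became 1 with a filter on all 15 arrays, 3 with normexp, 2 with trial 1 alone, 0 with the replicate block and 0 without slide 4, and it was 5 to 8 with each array left out. For PBS hearts of males against females the main count of 1 became 2 with quantile normalization, no trial term, the other trial label and the mean over probes, and 0 with the floor, normexp, no filter, trial 1 alone and without slide 4, and it was 0 to 2 with each array left out. A replicate block could not give this last comparison, since male and female arrays of a number come from different trials or pairs. Where a gene lay below background in PBS hearts, its difference is limited by the signal over background.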
